A study of Mus musculus with 4 samples.

Results

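Among 5429 single cells of mouse intestinal organoids, 214 carried both the messenger RNA of Atoh1, the factor that commits crypt cells to the secretory lineage, and a high level of transcripts of cell division. These dividing Atoh1-positive cells were chosen by 2 measured values: at least 2 unique molecular identifiers (UMIs, the counted RNA molecules) of Atoh1, and a sum of at least 500 UMIs per 1e6 UMIs of the cell (CPM) over Mki67, Top2a, Cenpf, Ube2c, Birc5 and Cdk1. Organoids had been grown from crypts of 2 mice, 10 weeks old, whose Cbl and Cblb genes are both flanked by loxP sites and which carry the tamoxifen-inducible recombinase R26Cre ERT2. Both groups share these alleles. The control organoids of each mouse were not given 4-hydroxytamoxifen, and the knockout organoids of the same mouse were grown with it at 400 nM over 3 days, which deletes both genes. The drug with its active recombinase and the loss of the genes therefore cannot be told apart in these data. The dividing Atoh1-positive cells numbered 51 of 1160 in control 1, 17 of 686 in control 2, 46 of 1650 in knockout 1 and 100 of 1933 in knockout 2.

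In the intestinal crypt, neighbouring cells signal through Notch. A cell with active Notch makes Hes1, which holds Atoh1 down and keeps the cell an absorptive progenitor. A cell that escapes Notch turns on Atoh1, displays the Notch ligands Dll1 and Dll4, and becomes a secretory cell: a goblet, Paneth, enteroendocrine or tuft cell. Mature secretory cells do not divide, so cells that hold Atoh1 while dividing are usually regarded as secretory progenitors. Cbl and Cbl-b are ubiquitin ligases that end signalling by receptor tyrosine kinases, among them the epidermal growth factor receptor.

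The rule sets the level of the 7 genes that chose the cells, so these are given as a description. Of the 214 cells, 58 had 2 Atoh1 UMIs, 93 had 3 to 5 and 63 had 6 or more, up to 23. Their median was 120 CPM for Atoh1 and 2272 CPM for the sum over the 6 proliferation genes. Just outside the rule lay 111 dividing cells with 1 Atoh1 UMI and 14 Atoh1-positive cells between 400 and 500 CPM of proliferation genes. Just inside it lay the 58 cells with 2 UMIs and 10 cells between 500 and 600 CPM. Atoh1 (ENSMUSG00000073043) is on chromosome 6 at 64729125 to 64731245 of GRCm38, plus strand.

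The label of these cells was checked against Spdef, Creb3l1 and Dll1, which the rule did not use. At least 1 UMI of Spdef, an Atoh1 target that drives goblet and Paneth maturation, was found in 174 of 214 cells (81.3%), against 69 of 2148 dividing cells with no Atoh1 UMI (3.21%). For Creb3l1, a membrane-bound factor that switches on secretory machinery, the shares were 88.3% and 30.3%. For Dll1 they were 54.2% and 10.5%. The median UMI count per cell ran from 26505 to 64349 over the 4 libraries in the dividing Atoh1-positive cells and from 23798 to 47854 in the dividing Atoh1-zero cells. When each cell was thinned to 5000 UMIs, Spdef was found in 36.4% against 1.39%, Creb3l1 in 49.3% against 9.96% and Dll1 in 22.5% against 2.50%. All 3 markers were thus present at either depth, although 40 of the 214 cells showed no Spdef at full depth.

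Each library was compared with 2 other classes of its own cells. The dividing Atoh1-zero cells passed the same proliferation threshold (409, 183, 770 and 786 cells in control 1, control 2, knockout 1 and knockout 2). The Atoh1-positive cells below the proliferation threshold had the same Atoh1 minimum (98, 69, 60 and 93 cells). UMIs were summed over the cells of a class in a library, and the sums of the dividing Atoh1-positive cells ran from 1169967 UMIs in control 2 to 2862609 in knockout 2. Markers of cells from outside the epithelium were almost absent: the summed level of 8 immune markers was 0 to 1.75 CPM, that of 6 mesenchymal markers 0 to 0.349 CPM and that of 4 endothelial markers 0 to 0.664 CPM per library. The median score of the doublet caller Scrublet was 0.102, 0.0856, 0.0902 and 0.0490 in the dividing Atoh1-positive cells of control 1, control 2, knockout 1 and knockout 2, against 0.0487, 0.0395, 0.0703 and 0.0556 in dividing Atoh1-zero cells. It was thus higher in the dividing Atoh1-positive cells of 3 libraries and lower in those of knockout 2, with the widest gaps in the controls. In Atoh1-positive cells below the threshold it was 0.0202 to 0.0305. Its part in the results was examined by removing high-scoring barcodes, and the values are given where they matter.

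How common were these cells with and without Cbl and Cblb? They made up 4.40% of all cells in control 1 (95% exact Clopper-Pearson interval 3.29 to 5.74), 2.48% in control 2 (1.45 to 3.94), 2.79% in knockout 1 (2.05 to 3.70) and 5.17% in knockout 2 (4.23 to 6.26). From control to knockout the share fell by 1.61 percentage points in mouse 1 and rose by 2.70 points in mouse 2 (1 library each, no test). The group means of 3.44% ± 1.36 (SD, n = 2) and 3.98% ± 1.69 (SD, n = 2) differed by less than the spread within the groups (two-sided exact permutation test over libraries, p = 0.667). With 2 libraries against 2, no p below 0.33 can be reached. With barcodes above the 90th percentile of the Scrublet score removed, the shares were 2.20%, 0.972%, 2.20% and 4.39%, so that the fall in mouse 1 was gone and the rise in mouse 2 was 3.42 points. Among the cells with 2 or more Atoh1 UMIs, a measure added after the data were seen, the share that was dividing was 34.2% in control 1, 19.8% in control 2, 43.4% in knockout 1 and 51.8% in knockout 2. Here the groups did not overlap, with 9.17 points more in the knockout of mouse 1 and 32.0 points more in that of mouse 2 (exact permutation p = 0.33, the smallest possible). The share of all cells that were dividing did not overlap between the groups either, at 41.3% and 31.2% in the controls against 51.2% and 48.4% in the knockouts. As a share of dividing cells, the dividing Atoh1-positive cells were 10.6%, 7.94%, 5.45% and 10.7%, with means of 9.30% in controls and 8.07% in knockouts. Over all kept cells the median UMI count was lower in the knockouts (16328 and 17688) than in the controls (19788 and 27709). With each cell thinned to 15000 UMIs the share of Atoh1-positive cells that were dividing was 25.5% ± 5.29 in controls and 47.1% ± 3.51 in knockouts (SD, n = 2). At 5000 UMIs, where few cells keep 2 Atoh1 UMIs, the groups overlapped and mouse 1 was 5.56 points lower in the knockout.

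**Figure D1:**
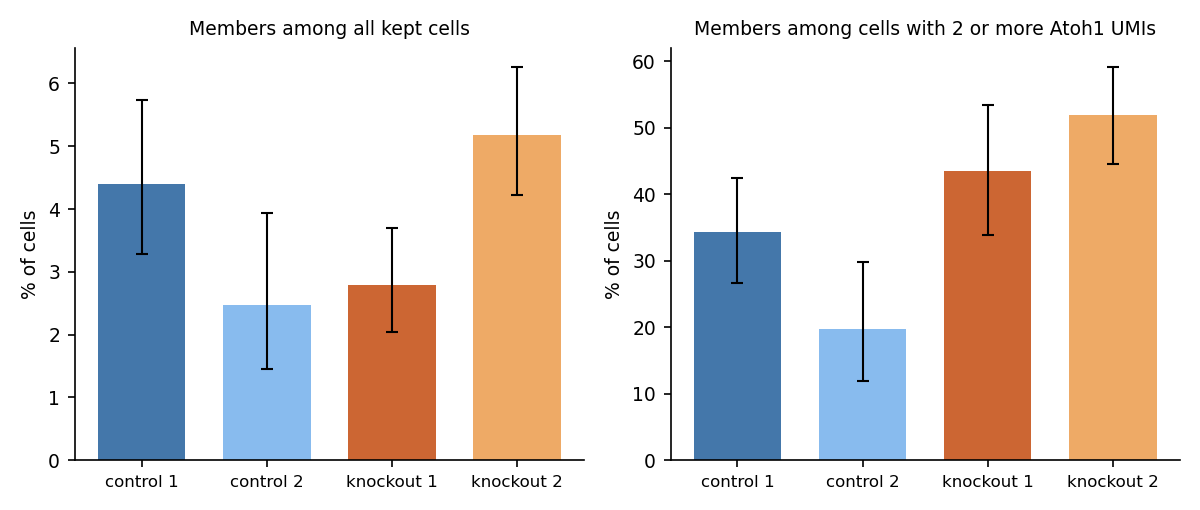
Bars give the share of dividing Atoh1-positive cells in each library, in percent of all kept cells (left) and of cells with 2 or more Atoh1 UMIs (right), and error bars the 95% exact binomial interval, which covers counting error only. On the left control 1 (4.40%) and knockout 2 (5.17%) are the highest, and on the right both knockout libraries (43.4% and 51.8%) lie above both controls.

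Against dividing cells without Atoh1, the dividing Atoh1-positive cells were set apart by Notch ligands, secretory factors and secretory products, and had less of the stem and Notch-response transcripts. Of 10592 genes tested with edgeR's quasi-likelihood test, with the library as a block, 2956 (27.9%) were called, of which 1566 were higher (14.8%) and 1390 lower (13.1%), at a Benjamini-Hochberg adjusted p under 0.05. The median over all genes was a log2 difference of -0.01. The knockout and control libraries enter this comparison together.

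Among the ligands, Dll1 was at 57.0, 19.7, 68.4 and 24.1 CPM in the dividing Atoh1-positive cells of control 1, control 2, knockout 1 and knockout 2, and at 6.23, 2.42, 7.23 and 4.26 CPM in the dividing Atoh1-zero cells. Each library showed the difference, and both libraries of mouse 1 stood above both of mouse 2. The log2 difference was 3.07 ± 0.15 (SE, 4 libraries; edgeR adjusted p = 1.78e-09). Dll4, the other Delta ligand of the crypt, was higher by 3.26 ± 0.27 (adjusted p = 5.2e-07), and Dll3 by 4.73 from levels at or under 0.449 CPM. Of the 24 Notch pathway genes listed, 19 were tested, of which 9 were higher and 4 lower, with a median of 0.23. Among the higher were also the ligand Jag2 and Hes6, which counteracts Hes1.

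The 4 lower genes were the receptors Notch1 and Notch2 and the response genes Hes1 and Nrarp. Hes1, the repressor of Atoh1, stood at 99.8, 70.9, 61.1 and 45.8 CPM in the dividing Atoh1-positive cells and at 229, 197, 166 and 178 CPM in the dividing Atoh1-zero cells. The 2 ranges did not overlap (log2 difference -1.44 ± 0.09, edgeR adjusted p = 4.86e-08). Nrarp, a feedback inhibitor induced by Notch, was lower by a log2 difference of -1.16 and Notch1 by -1.23.

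Of 18 listed secretory factors 15 were tested, and 13 were higher, none lower, with a median of 1.10. Spdef was at 74.4, 43.6, 97.7 and 102 CPM against 0.615, 1.94, 1.84 and 7.18 CPM, a log2 difference of 4.92 ± 0.29 (edgeR adjusted p = 1.85e-08). Gfi1, which steers secretory cells away from the enteroendocrine fate, was higher by 5.22, and Bhlha15, a factor of mature secretory cells, by 4.28. The exceptions were the progenitor factors Sox4 and Sox9, with log2 differences of -0.14 (adjusted p = 0.378) and -0.01. Creb3l1 was higher by 2.84 ± 0.10. The gene for Spdef lies on chromosome 17 at 27714352 to 27728955 and that for Creb3l1 on chromosome 2 at 91982328 to 92024502, both on the minus strand of GRCm38.

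Products of mature secretory cells were also higher. All 12 tested goblet genes and all 16 tested Paneth genes were higher than in dividing Atoh1-zero cells, with medians of 4.65 and 3.94. Muc2, the gel-forming mucin of goblet cells, was at 355, 468, 332 and 961 CPM against 12.5, 15.6, 21.4 and 47.4 CPM. Lyz1, the lysozyme of Paneth granules, was at 7514, 5889, 5473 and 9671 CPM against 234, 227, 176 and 828 CPM. Free RNA can reach any droplet, and at least 1 Lyz1 UMI was found in 53.2% of the dividing Atoh1-zero cells (21.5% when thinned to 5000 UMIs), against 94.4% of the dividing Atoh1-positive cells (85.2% thinned). The level was higher in the dividing Atoh1-positive cells of each of the 4 libraries. Wnt3, which Paneth cells supply to stem cells, was higher by 3.89 ± 0.11 (edgeR adjusted p = 1.43e-11). The secretin gene Sct was higher by 3.39 while the granule gene Chgb was lower by a log2 difference of -4.51. Per cell, the enteroendocrine list had a median of 72.5 CPM against 0 CPM in dividing Atoh1-zero cells. Its highest cell stood at 997 CPM against 35352.5 CPM. How many cells hold the Chgb difference was not tested.

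The machinery of protein folding and export was higher as well. Of 26 tested genes of endoplasmic reticulum (ER) folding and secretion, 25 were higher and none lower, with a median of 1.00. Hspa5, the main ER chaperone BiP, was at 544, 537, 851 and 926 CPM against 306, 279, 417 and 389 CPM (log2 difference 1.08 ± 0.07, edgeR adjusted p = 3.81e-08). Kdelr3, a receptor that returns ER proteins, had the largest difference of the list at 3.92.

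Stem and absorptive transcripts were lower. Of 15 crypt base stem genes, 9 were lower and 1, Prom1, was higher, with a median of -0.38. Olfm4 was at 1190, 254, 811 and 148 CPM against 2610, 772, 3399 and 1115 CPM, and its 4 pairs all pointed the same way (log2 difference -1.85 ± 0.18, edgeR adjusted p = 2.75e-06). Ascl2, a master factor of the stem cell, was lower by a log2 difference of -1.18, and Lgr5, the receptor that marks stem cells, by -0.69. Of 14 tested enterocyte genes, 9 were lower and none higher in the sums, led by the fatty acid binding protein gene Fabp1 at -5.40. Per cell the gap was small: the enterocyte list had a median of 465 CPM against 541 CPM in dividing Atoh1-zero cells. The highest cell stood at 3437 CPM against 70886 CPM, so the sums can rest on few comparison cells. The Fabp1 level in dividing Atoh1-zero cells ranged from 3.09 to 143 CPM between libraries.

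Genes of the cell cycle itself differed little, which follows in part from the shared proliferation threshold. Of 35 DNA replication genes 10 were lower and none higher, with a median of -0.18 and the lowest at -0.40 (Cdt1). Of 32 mitosis genes 7 were lower and none higher, with a median of -0.17. Pcna, the sliding clamp of DNA polymerase, was at 93.4, 65.0, 94.99 and 90.1 CPM against 100, 106, 98.3 and 84.3 CPM, a difference that did not pass the test (-0.08 ± 0.10, edgeR adjusted p = 0.627). Among genes of cycle entry and exit, 7 of 21 tested were higher and 3 lower. The higher included the inhibitors Cdkn1a (0.78), Cdkn2b (0.89) and Cdkn2d (0.61) and the antiproliferative Btg2 (0.76), and the lower were Ccnd1, Cdk4 and Cdk6, which drive G1.

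**Figure D2:**
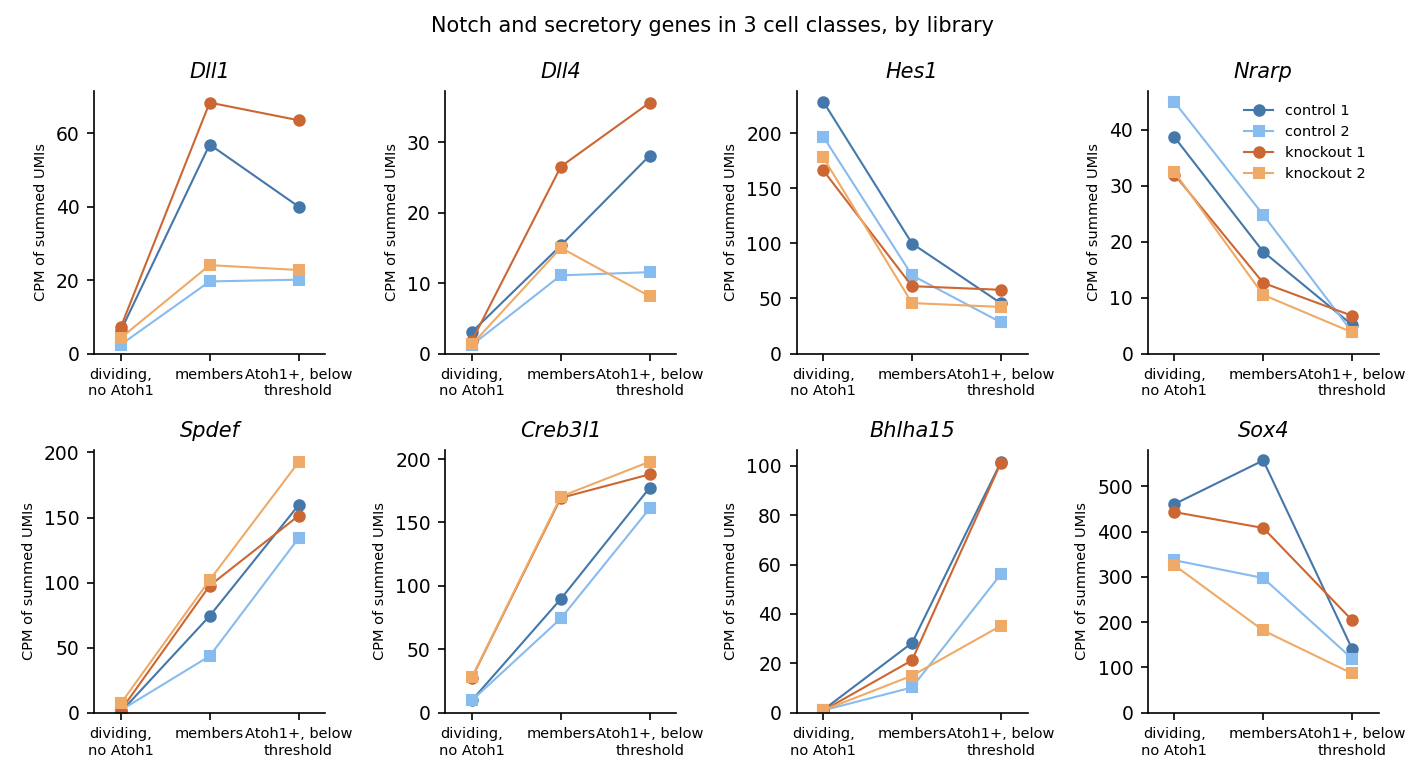
Level of 8 genes, in CPM of the UMIs summed over each class, in dividing Atoh1-zero cells, dividing Atoh1-positive cells (members) and Atoh1-positive cells below the proliferation threshold, with 1 line per library. Dll1 spans 19.7 to 68.4 CPM in the middle and 20.1 to 63.6 CPM on the right, Hes1 and Nrarp fall from left to right, and Spdef, Creb3l1 and Bhlha15 climb, while Sox4 is lowest on the right in all 4 libraries.

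Against Atoh1-positive cells below the proliferation threshold, the dividing cells had less of nearly all secretory products and more stem cell transcripts. Of 9143 genes tested 3788 (41.4%) were called, and 1752 were higher (19.2%) and 2036 lower (22.3%), with a median of -0.03 over all genes. Mitosis genes follow the rule here: 31 of 31 tested were higher, with a median of 4.35, and 33 of 35 DNA replication genes were higher, with a median of 1.43. Nothing is read from these.

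Goblet genes were lower in 13 of 13 tested (median -1.77) and Paneth genes in 16 of 17 (median -2.18). Muc2 was at 1553, 1371, 1118 and 1992 CPM in the Atoh1-positive cells below the threshold, above the dividing cells in every library (log2 difference -1.96 ± 0.14, edgeR adjusted p = 4.68e-09). The defensin gene Defa21 had the largest difference at -4.84: it was at 185, 20.5, 190 and 503 CPM in the dividing cells against 4318, 1770, 6846 and 2993 CPM. Defensin genes are near-identical copies, and reads may have been split between them. Paneth products took a median of 104455 CPM of a cell below the threshold against 21541 CPM of a dividing Atoh1-positive cell. The test used TMM scaling.

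Among the Notch genes, 1 of 15 tested was higher in the dividing cells and 2 were lower. Dll1 was at 40.1, 20.1, 63.6 and 22.8 CPM in the cells below the threshold, and its difference of -0.15 did not pass the test (SE 0.14, edgeR adjusted p = 0.441, 4 libraries). Its sign turned under other settings, to 0.03 with the highest doublet scores removed and to 0.20 with comparison cells matched on total UMIs. Hes1 was also not called (0.35 ± 0.18, adjusted p = 0.136). Nrarp was higher in the dividing cells, at 18.2, 24.8, 12.6 and 10.5 CPM against 5.12, 3.86, 6.75 and 3.80 CPM (log2 difference 1.49 ± 0.30, edgeR adjusted p = 0.000578). Dll4 was lower by a log2 difference of -0.62 (adjusted p = 0.0484), but knockout 2 pointed the other way.

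Of 14 tested secretory factors 9 were lower in the dividing cells and 2 higher, with a median of -0.72. The lower included Bhlha15 (-2.24), Spdef (-1.38), Creb3l1 (-0.94) and Xbp1 (-0.85), the last a factor of the unfolded protein response. Sox4 was the opposite, at 557, 297, 408 and 182 CPM in the dividing cells against 141, 120, 204 and 86.8 CPM (log2 difference 1.01 ± 0.13, edgeR adjusted p = 6.88e-06). Tox3 was the other higher factor, at 0.68. ER folding genes were lower in 26 of 27 tested (median -0.85). Immediate early genes, which respond within minutes to growth factors and to tissue handling, were lower in 12 of 14 and higher in none, with Fos at -1.25 and Atf3 at -1.80. Stem genes were higher in 7 of 14 tested and lower in 1. Ascl2 stood at 51.7, 58.1, 41.2 and 10.5 CPM against 6.40, 8.14, 13.5 and 2.71 CPM (log2 difference 2.17 ± 0.23, edgeR adjusted p = 8.49e-07), and Olfm4 was higher by 1.09.

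A few genes lay outside the levels of both comparison classes. Of 9115 genes tested in both comparisons, 39 were called higher than in both classes (0.428%) and 64 lower than in both (0.702%). In 29 of the 39, the dividing Atoh1-positive cells held the highest of the 3 levels in all 4 libraries. Cdc25b, the phosphatase that starts entry into mitosis, was at 90.5, 81.2, 87.0 and 85.9 CPM in the dividing Atoh1-positive cells, at 44.1, 39.1, 43.0 and 43.1 CPM in dividing Atoh1-zero cells and at 20.04, 17.99, 27.0 and 24.9 CPM in Atoh1-positive cells below the threshold. The 3 ranges did not touch. Its log2 differences were 1.09 ± 0.08 (edgeR adjusted p = 1.49e-07) and 1.63 ± 0.14 (adjusted p = 4.36e-08). Genes of cell division follow the rule in the second comparison, so for Cdc25b only the first difference is read. Cdc25b lies on chromosome 2 at 131186949 to 131198497, plus strand.

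Gpsm2, which orients the mitotic spindle, was at 65.9, 47.9, 49.8 and 48.9 CPM against 46.1, 40.5, 41.6 and 36.2 CPM and against 19.2, 13.7, 26.0 and 25.5 CPM. Its log2 differences were 0.45 ± 0.09 and 1.03 ± 0.17, of which the second again follows the rule. Etv5, an ETS factor induced by ERK signalling, was higher than in both by 1.09 ± 0.20 and 0.88 ± 0.25. Its relative Etv4 was lower than in dividing Atoh1-zero cells (-0.46) and higher than in the cells below the threshold (0.83). The cell cycle inhibitor Cdkn2d was higher by 0.61 and 1.57, the histone variant gene H2afz by 0.39 and 0.90 and the factor Tox3 by 0.30 and 0.68. For Cdkn2d and H2afz too, the second difference may follow the rule. These genes were named for this pattern after their values were seen, apart from Cdkn2d, Etv5 and Tox3, which stood in the gene lists. With barcodes above the 90th percentile of the Scrublet score removed, which also left out control 2 with its 6 remaining cells, 39 of the 39 genes stayed above both classes in the sign of the difference and 17 were called in both comparisons. With comparison cells matched on total UMIs, these counts were 39 and 22, and with DESeq2 39 and 15. The 39 genes were picked from these same cells, so a kept sign is no separate support.

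**Figure D3:**
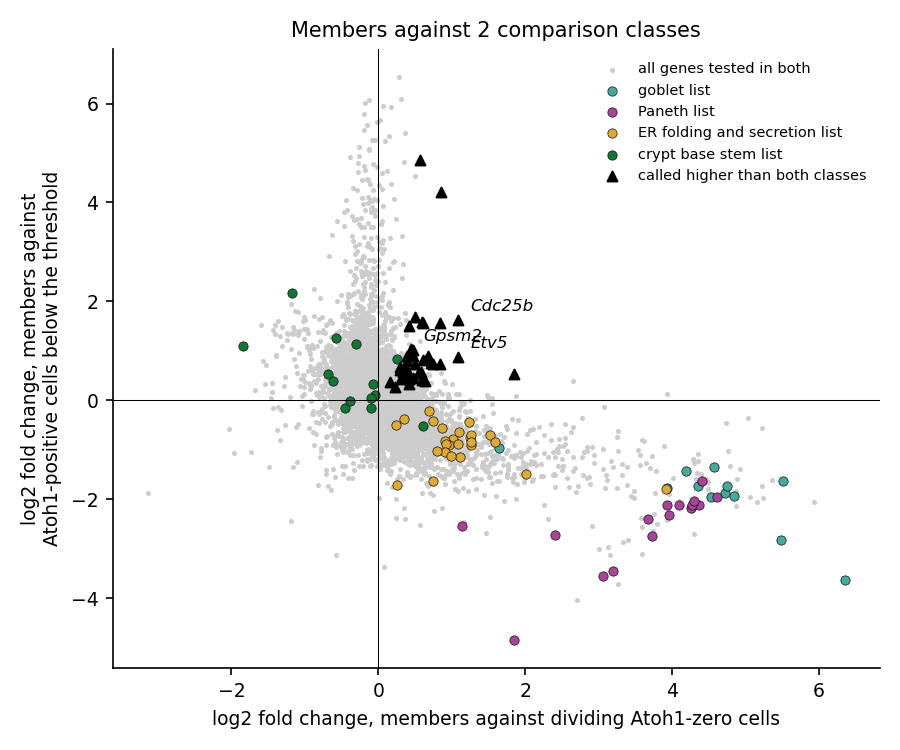
Each point is 1 of 9115 genes, with its log2 fold change in dividing Atoh1-positive cells (members) against dividing Atoh1-zero cells on the horizontal axis and against Atoh1-positive cells below the threshold on the vertical axis. Goblet, Paneth and ER genes fill the lower right, crypt base stem genes are coloured too, and the rule-driven mitosis genes are not marked. The 39 triangles mark genes called higher than both classes, Cdc25b among them.

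The dividing Atoh1-positive cells were not uniform. The goblet list summed to a median of 20539 CPM per cell with a 10th to 90th percentile range of 2039 to 48387 CPM, and the Paneth list to a median of 21541 CPM with a range of 725 to 151089 CPM. As a description, cells were set against the 95th percentile of the dividing Atoh1-zero cells in their own library. For the goblet list this limit was 2173, 5068, 1363 and 9984 CPM in control 1, control 2, knockout 1 and knockout 2. For the Paneth list it was 4627, 10259, 3034 and 10668 CPM. The counts per library thus rest on unlike limits. Of the 214 cells 144 exceeded it for both lists, 36 for the goblet list alone, none for the Paneth list alone and 34 for neither. In the summed UMIs, the goblet list genes Tff3 (4527 to 9546 CPM) and Agr2 (2769 to 11751 CPM) stood far above Fcgbp (383 to 887 CPM). A cell above the goblet limit is therefore not shown to hold every product of that list. Which genes carry the sum of each cell was not tested. The 144 with both were 35 of 51 cells in control 1, 10 of 17 in control 2, 34 of 46 in knockout 1 and 65 of 100 in knockout 2. Only 13 of the 214 cells exceeded the median of the Atoh1-positive cells below the threshold for both lists.

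**Figure D4:**
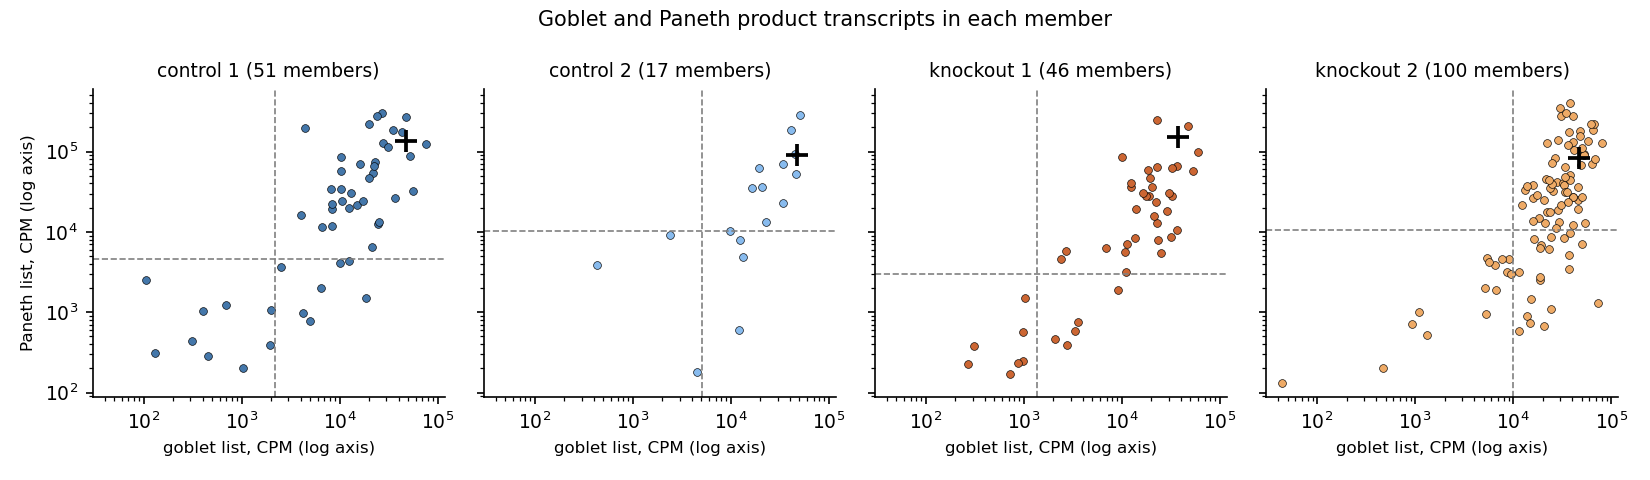
Each point is 1 dividing Atoh1-positive cell, with its summed CPM of the goblet list and of the Paneth list on log axes, in 1 panel per library. Dashed lines mark the 95th percentile of dividing Atoh1-zero cells and the cross the medians of Atoh1-positive cells below the threshold. The lower right holds cells above the goblet line only, and the upper left is empty.

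The 34 cells below both limits, here called cells with neither product set, were set beside the 144 above both. They were low in these products and not free of them, since no dividing Atoh1-positive cell had 0 CPM of either list. This split was made after the values were seen and rests on 9, 3, 7 and 15 cells per library, so it is given with no test. Sox4 summed to 1568, 533, 721 and 433 CPM in the cells with neither product set and to 257, 195, 254 and 104 CPM in those with both, higher in each library. Ascl2 was at 104, 117, 126 and 23.9 CPM against 30.2, 36.6, 18.5 and 7.04 CPM, and Hes1 at 116, 126, 107 and 66.1 CPM against 76.7, 58.3, 51.6 and 40.6 CPM. The stem markers Lgr5 and Olfm4 were higher in the cells with neither product set in 3 libraries and lower in control 2, where Lgr5 was at 5.86 against 29.97 CPM and Olfm4 at 49.8 against 458 CPM. Spdef was lower in the cells with neither set in each library, at 2.00, 0, 25.9 and 31.2 CPM against 96.4, 46.6, 119 and 115 CPM. Dll1 was higher in the cells with neither product set in all 4 libraries, with small gaps in both knockout libraries. Its levels were 104, 20.5, 70.2 and 20.2 CPM against 40.6, 8.32, 60.4 and 15.7 CPM. The median Scrublet score of the cells with neither was lower than that of the cells with both in control 1 (0.0528 against 0.129) and control 2 (0.0670 against 0.0856) and higher in knockout 1 (0.0988 against 0.0795) and knockout 2 (0.109 against 0.0460). Median depth was 41765 and 29442 UMIs.

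Enteroendocrine and tuft transcripts were rare. Neurog3, the factor that begins the enteroendocrine fate, had a UMI in 6 of 214 cells (2.80%), of which 4 came from control 1, against 0.698% of dividing Atoh1-zero cells. Neurod1 had a UMI in 2 cells. Pou2f3, the tuft cell factor, had one in 8 cells, and the tuft marker Dclk1 in 1 cell. Of the 11 tuft markers none passed the filter on low counts, and their sum was 2.56 to 5.31 CPM per library. The 16 enteroendocrine markers summed to 88.5 to 129 CPM, most of it from Sct at 69.8 to 112 CPM.

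The targeted genes were examined first in the comparison of knockout with control. Cbl was at 18.998 and 24.8 CPM in the dividing Atoh1-positive cells of the controls and at 12.0 and 9.78 CPM in those of the knockouts. Cblb was at 8.89 and 5.13 CPM (controls) against 5.31 and 0.699 CPM (knockouts). Both were lower in the knockout of each mouse, and neither passed the test across all genes (log2 difference -1.01 ± 0.29 with edgeR adjusted p = 0.491, and -1.61 ± 0.74 with adjusted p = 0.655). Cblc, the relative that was not targeted, differed by 0.06 ± 0.29. Reads from outside the deleted exons do not report the deletion, and the position of the reads in the genes was not analysed here. Cbl lies on chromosome 9 at 44142976 to 44234049 (minus strand) and Cblb on chromosome 16 at 52031225 to 52208048 (plus strand).

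In the fit on group alone, edgeR called none of 9335 genes in the dividing Atoh1-positive cells (0%), with 341 higher and 377 lower at an unadjusted p under 0.05; DESeq2 called 6 higher and 2 lower. With the mouse as a block, edgeR called 32 genes higher (0.343%) and 37 lower (0.396%), and DESeq2 with the same block 5 and 4. Of these 69 genes (0.739%), 68 had the same direction in both mice by CPM. The groups did not overlap in 31 of the 32 higher genes and in 26 of the 37 lower genes. The blocked fit favours genes that move alike in both mice of these same libraries. These counts therefore only describe the called genes, and the matching shares over all genes are not given. The dividing Atoh1-positive cells were deeper in the controls (median 43471 and 64349 UMIs) than in the knockouts (30707 and 26505 UMIs). The minimum of 2 Atoh1 UMIs thus asked for a higher Atoh1 level in the knockouts. Median Atoh1 was 103 and 76.9 CPM (controls) against 154 and 128 CPM (knockouts). No knockout fit was matched on depth, so its part in the differences below was not tested. The values below are those of the blocked fit unless stated.

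The higher genes included Agr2, Reg4, Creb3l1 and several ER chaperones. Agr2, a disulphide isomerase needed for mucin folding, was at 2769 and 3180 CPM (controls) against 6048 and 11751 CPM (knockouts). Its log2 difference was 1.48 ± 0.15 (edgeR adjusted p = 0.00112, and edgeR adjusted p = 0.28 without the block). Reg4, a secreted lectin of deep crypt secretory cells, was at 169 and 237 CPM (controls) against 575 and 1448 CPM (knockouts), a log2 difference of 2.16 ± 0.18 (edgeR adjusted p = 0.000413). Creb3l1 was at 89.7 and 74.4 CPM (controls) against 169 and 170 CPM (knockouts) (1.01 ± 0.15, edgeR adjusted p = 0.0117). In none of these did a control library reach a knockout library. Spdef (0.72, adjusted p = 0.153) and Xbp1 (0.70, adjusted p = 0.0667) did not pass.

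Goblet products did not move together. Of 12 tested goblet genes 1, Agr2, was higher and 3 lower, with a median of 0.24 against 0.00 over all genes. Fcgbp, a mucus-binding protein, was at 705 and 887 CPM (controls) against 383 and 491 CPM (knockouts) (log2 difference -0.90 ± 0.11, edgeR adjusted p = 0.00514). With barcodes above the 90th percentile of the Scrublet score removed, and control 2 left out with them, its difference was -0.03 in the fit on group alone. Tff3, the trefoil peptide, was at 6283 and 9546 CPM against 4527 and 7133 CPM, so that the groups overlapped (-0.48 ± 0.08, edgeR adjusted p = 0.0242). Zg16 had a difference of -1.98 with a level of 3.99 CPM in knockout 1; in the fit on group alone its difference of -1.48 turned to 0.29 without control 2. Of 17 tested Paneth genes 3 were lower, Defa17 among them at -1.08, and none higher.

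Of 27 tested genes of ER folding and secretion 6 were higher and none lower, and 22 had a positive difference (median 0.38). The 6 were Hspa5, Hsp90b1, Creld2, Sdf2l1, Manf and Kdelr2, which fold proteins or retain chaperones in the ER. Hspa5 went from 544 and 537 CPM to 851 and 926 CPM (log2 difference 0.69 ± 0.12, edgeR adjusted p = 0.0213). Hsp90b1, the ER form of HSP90, went from 720 and 556 CPM to 1066 and 980 CPM (0.66 ± 0.12, adjusted p = 0.0272). Creld2 went from 52.1 and 61.5 CPM to 100 and 105 CPM (0.83 ± 0.16, adjusted p = 0.0392). With the fit on group alone none of the 6 was called, and the adjusted p of Hspa5 was 0.292.

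Genes of this kind often carry the ER stress response element, to which ATF6 and XBP1 bind. The promoter sequences of 3 of the 6 are shown because they hold it: the 250 bases before the RefSeq start site, 5′ to 3′ on the gene's strand, with the element in capitals. The letters searched were CCAAT, then 9 bases of any kind, then CCACG, on both strands, in windows from 250 bases before to 50 after each start (RefSeq, GRCm38.p6). The window of Hspa5 is chr2:34771840-34772089 on the plus strand, that of Hsp90b1 chr10:86705445-86705694 on the minus strand and that of Creld2 chr15:88819396-88819645 on the plus strand.
Hspa5: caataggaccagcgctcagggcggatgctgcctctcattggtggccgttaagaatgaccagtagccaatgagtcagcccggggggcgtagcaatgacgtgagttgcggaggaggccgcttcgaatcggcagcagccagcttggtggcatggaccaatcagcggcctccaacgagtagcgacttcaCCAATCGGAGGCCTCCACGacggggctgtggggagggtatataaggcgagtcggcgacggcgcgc
Hsp90b1: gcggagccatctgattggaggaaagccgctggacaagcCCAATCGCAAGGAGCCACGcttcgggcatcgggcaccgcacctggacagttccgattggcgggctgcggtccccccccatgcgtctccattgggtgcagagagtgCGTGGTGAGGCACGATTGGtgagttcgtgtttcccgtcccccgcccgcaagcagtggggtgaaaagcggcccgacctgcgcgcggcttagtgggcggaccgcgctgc
Creld2: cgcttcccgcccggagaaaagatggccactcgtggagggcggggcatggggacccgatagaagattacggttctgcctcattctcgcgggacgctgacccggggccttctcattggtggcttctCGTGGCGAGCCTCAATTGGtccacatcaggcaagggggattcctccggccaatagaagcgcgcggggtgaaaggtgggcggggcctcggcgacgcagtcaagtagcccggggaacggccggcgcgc
The element began 65 bases before the start in Hspa5, 126 before it in Creld2, and 212 and 107 before it in Hsp90b1. It was found in 7 of the 23 ER genes that had a window (30.4%), against 37 of all 27025 genes with a window (0.137%), or 0.119% of their 32851 windows. The other 4 were Calr, Canx, Dnajc3 and Pdia6, whose knockout differences of 0.48, 0.09, 0.46 and 0.58 were not called. Sdf2l1 rose without a match in its window. Manf and Kdelr2, also called higher, had no window and were not searched. Genes of this kind often carry the element, so the contrast with all genes does not bear on the knockout. A match is a run of letters, and binding was not measured here.

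Were these changes particular to the dividing Atoh1-positive cells? In the dividing Atoh1-zero cells, 30 of the 32 higher genes and 28 of the 37 lower genes had the same direction by CPM in both mice. Both classes come from the same libraries, and the share over all genes is not given. These counts therefore do not decide the question. Hspa5 was at 306 and 279 CPM (controls) against 417 and 389 CPM (knockouts) there, and Creb3l1 at 9.92 and 9.82 CPM and at 27.7 and 28.2 CPM. The difference between the 2 effects was tested as an interaction. Of 11073 genes 10 were called (0.0903%), 4 with a more positive (0.0361%) and 6 with a more negative knockout effect (0.0542%) in the dividing Atoh1-positive cells, with 815 at an unadjusted p under 0.05. For Agr2 the knockout effect was smaller in the dividing Atoh1-positive cells by a log2 value of -0.56 ± 0.06 (edgeR adjusted p = 0.00212): it went from 105 and 107 CPM to 315 and 628 CPM in the dividing Atoh1-zero cells. With barcodes above the 90th percentile of the Scrublet score removed, this difference turned to 0.24 and was not called (adjusted p = 0.355), and DESeq2 did not call it either. None of the ER folding genes was called in the interaction. Some dividing Atoh1-zero cells were rich in secretory products, up to 98706.5 CPM of the goblet list and 506619 CPM of the Paneth list. In this class the goblet list had a median of 171 and 138 CPM (controls) against 262 and 331 CPM (knockouts). Its 95th percentile was 2173 and 5068 CPM (controls) against 1363 and 9984 CPM (knockouts). How far the product-rich cells carry the changes in this class was not tested.

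**Figure D5:**
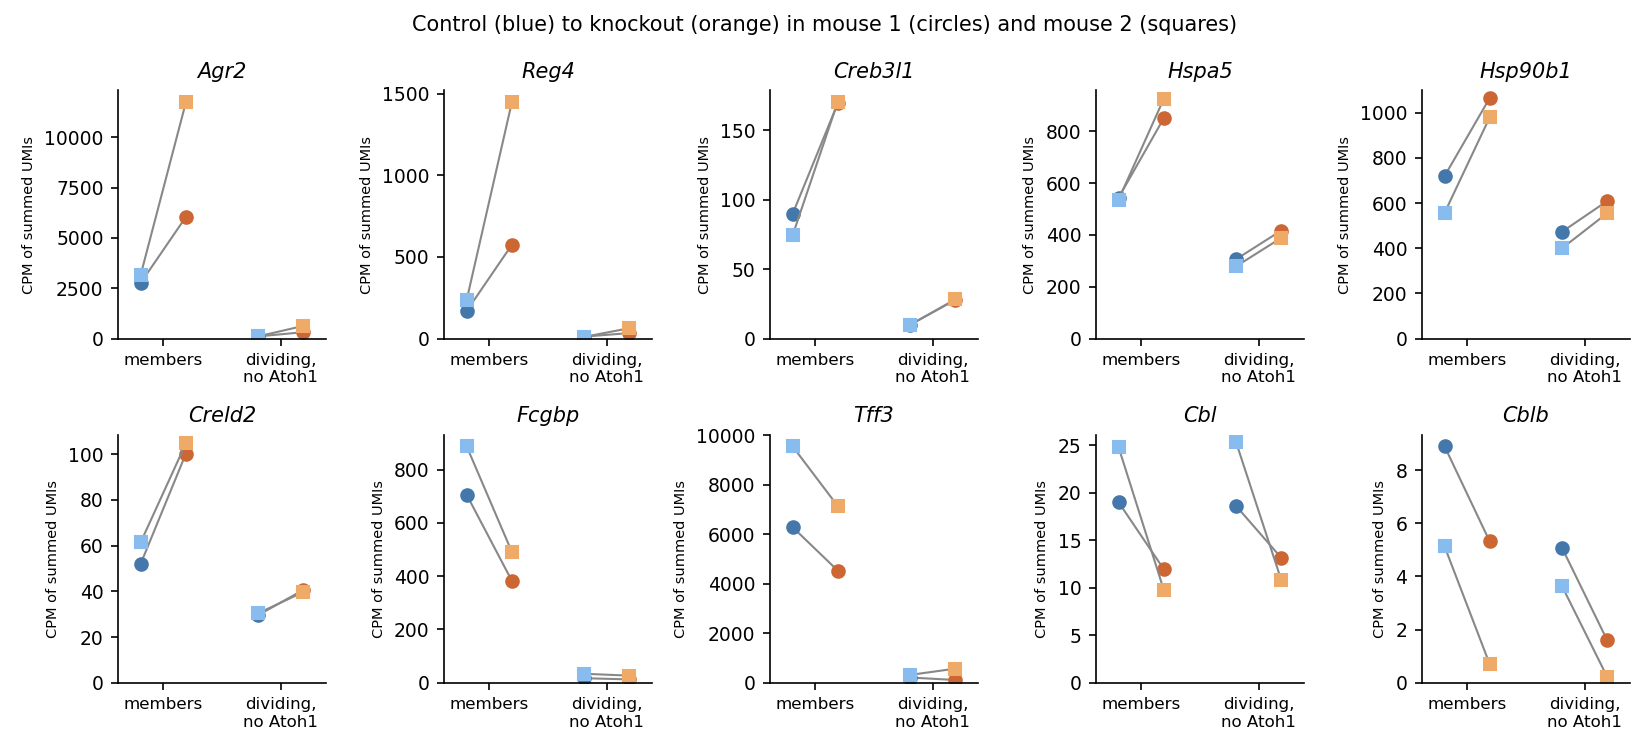
Level of 10 genes in CPM of summed UMIs, in dividing Atoh1-positive cells (members) and in dividing Atoh1-zero cells, with a line from control (blue) to knockout (orange) for mouse 1 (circles) and mouse 2 (squares). The lines of Agr2, Reg4, Creb3l1, Hspa5, Hsp90b1 and Creld2 rise and those of Cbl and Cblb fall in both mice and both classes, while Tff3 falls in the dividing Atoh1-positive cells of both mice.

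Lists tied to the role of the Cbl proteins showed few calls. Of 12 tested ERK feedback genes none was called between knockout and control, with 10 positive differences and a median of 0.24. None of 7 ErbB receptor and ligand genes was called. Of 16 tested p53 targets 1 was higher, Ccng1, a cyclin induced by p53, which went from 28.7 and 35.9 CPM to 58.5 and 80.3 CPM (log2 difference 1.06 ± 0.19, edgeR adjusted p = 0.0242), and 13 were positive (median 0.53). The same gene went from 28.6 and 39.0 CPM to 58.8 and 86.4 CPM in dividing Atoh1-zero cells. No Notch pathway gene of 17, DNA replication gene of 35 or mitosis gene of 32 was called, with medians of -0.20, 0.34 and 0.06. All 35 DNA replication genes had positive differences, as had 6 of the 17 Notch genes and 19 of the 32 mitosis genes. Dll1 differed by 0.23 (adjusted p = 0.69). Of 15 stem genes 1 was lower, Olfm4, at 1190 and 254 CPM (controls) against 811 and 148 CPM (knockouts), where the 2 mice differed more than the groups. In the fit on group alone its difference of -0.67 became 0.81 when control 1 was left out and 0.073 when knockout 2 was. Sox4 was lower by a log2 difference of -0.60 (adjusted p = 0.041), with the same gap between mice: 557 and 297 CPM in controls against 408 and 182 CPM in knockouts.

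Among called genes whose mean log2 CPM reached 5, those with large differences also included Clu, Slc25a4, 1500009L16Rik, Tuba1a and R3hdml on the higher side and Cth, Reep6, Fam213b, Thbs1 and Fosb on the lower side. Slc25a4, a mitochondrial ADP/ATP carrier, went from 26.3 and 13.7 CPM to 94.3 and 50.3 CPM (log2 difference 1.81 ± 0.20, edgeR adjusted p = 0.00174). Clu, a chaperone of regenerating epithelium, went from 2.02 and 10.3 CPM to 15.9 and 91.2 CPM, and knockout 2 held most of the signal. Fosb, an immediate early gene, was lower at 17.3 and 49.95 CPM against 65.9 and 88.04 CPM, and all 14 immediate early genes had negative differences (median -0.63), of which Fosb alone was called.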

How the data were processed

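Intestinal organoid cells of 2 control and 2 knockout libraries were profiled by droplet single-cell RNA sequencing. The deposited files hold UMI counts per gene and barcode, made by the authors with Cell Ranger 3.0.1 on mm10, per the submitters' processing notes; the file headers name software version 3.0.0. Groups and replicate numbers came from the sample labels. The members, gene lists and tests were chosen with earlier results of these data known.

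Of 5602 barcodes, 173 with fewer than 500 detected genes were left out. CPM were computed from all UMIs of a barcode or a sum. UMIs were summed per library and class (at least 10 cells), the 7 rule genes were left out of tests, and edgeR 4.0.16 (TMM, filterByExpr, quasi-likelihood test, Benjamini-Hochberg adjusted p under 0.05, two-sided) was run in R 4.3.3 over all genes; a standard error is the log2 fold change divided by the square root of F. Cells are not replicates, and the library is. Comparisons between classes had the library as a block, and the knockout comparison the group alone. Organoids came from 2 mice, each split between both conditions per the labels' design text, and the control and knockout of 1 number share a tag in the deposited data, which is taken as the mouse; the replicate number was used as a block in a second fit. Over 9335 genes, the 2 libraries of a mouse deviated together from their groups (correlation 0.297). With 2 libraries a group, p-values measure only the spread between these libraries. Replicates differed by more than sampling noise (chi-square per degree of freedom 4.36 and 7.23), and 2 barcodes were shared between libraries, none of them a member.

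Doublets were scored with Scrublet in scanpy 1.11.5; its automatic threshold marked under 0.5% of barcodes in both knockout libraries and over all, but not in the controls, and was not used; removal of the highest scores (0.8% per 1000 barcodes, 67 in all) was an alternative. Intervals are exact Clopper-Pearson at 95% and cover counting error only. The test script was tested on simulated data. Named were the label markers and the Cbl genes, up to 6 called genes per list and comparison, genes of the Notch, factor, product and stem lists needed to describe the cells, and the 10 largest changes in each direction at an average log2 CPM of at least 5. Alternatives were DESeq2 1.42.0, RLE scaling, no filter, other thresholds, thinning, matched depth, doublet removal and leaving out each library. The removal of Scrublet scores above the 90th percentile, thinning to 15000 UMIs and the share among Atoh1-positive cells were chosen after seeing the data.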

Additional observations from a re-analysis of the deposited data

Results flagged for a closer look

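The knockout effect on 10 genes differed between dividing Atoh1-positive and dividing Atoh1-zero cells by the interaction test of edgeR. The log2 value of the difference was 8.28 for Mptx2, 4.64 for Ly6d, 4.47 for Gm14851 and 3.23 for Krt20, all more positive in the dividing Atoh1-positive cells. It was -3.37 for Anxa10, -1.79 for R3hdml, -1.23 for Ang4, -1.13 for Olfm4, -0.73 for Fxyd3 and -0.56 for Agr2. Mptx2 and Ly6d rest on few molecules: Mptx2 was at 0.404, 0, 0.664 and 3.14 CPM in the dividing Atoh1-positive cells of control 1, control 2, knockout 1 and knockout 2. Olfm4 fell in the knockouts of both mice in the dividing Atoh1-positive cells, while it went from 2610 to 3399 CPM in mouse 1 and from 772 to 1115 CPM in mouse 2 in the dividing Atoh1-zero cells. Fxyd3 was level in the first class, at 322, 326, 320 and 363 CPM, and went from 40.2 and 42.1 CPM to 58.8 and 85.5 CPM in the second. Ang4, a Paneth antimicrobial, was at 1150, 1487, 383 and 2033 CPM in the first class and at 47.3, 45.0, 28.8 and 183 CPM in the second.

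The share of all cells that were dividing and Atoh1-positive changed in opposite directions in the 2 mice, by -1.61 percentage points in mouse 1 and by 2.70 points in mouse 2. The difference between the mice was not tested, since each has 1 library per group. With barcodes above the 90th percentile of the Scrublet score removed, the changes were -0.00114 and 3.42 points. The sign of the Agr2 interaction turned under that removal, to 0.24.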

How the results depend on the processing

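The share of all cells that were dividing and Atoh1-positive differed between knockout and control by 0.543 percentage points, and the sign turned with Atoh1 at 3 or more UMIs (-0.0585), a proliferation threshold of 250 CPM (-0.303) and cells thinned to 5000 UMIs (-0.0138); leaving out each library gave -0.649 to 1.74. The share with a UMI, as a mean over libraries, was 22.5% for Dll1, 35.6% for Spdef, 42.6% for Creb3l1 and 20.4% for Lgr5 in cells thinned to 5000 UMIs.

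For knockout against control, edgeR on the group alone called 0 genes, and with the replicate block, which pairs libraries by mouse, 32 higher and 37 lower (5 and 4 with DESeq2 and the block). Without the block the counts were 6 and 2 with DESeq2, 82 and 77 without a filter, 3 and 2 with doublet scores above the 90th percentile removed, 7 and 5 with Atoh1 at 3 or more UMIs, and 5 to 64 and 5 to 59 when each library was left out. For the interaction, against 4 and 6, they were 43 and 67 without a filter, 0 and 2 with DESeq2, 11 and 9 with doublets removed, 65 and 50 with the stricter removal, 56 and 43 with Atoh1 at 3 or more UMIs, and 6 to 107 and 6 to 93 when each library was left out. Against dividing Atoh1-zero cells, 1390 lower genes became 892 with DESeq2, 734 with the stricter removal, 880 with matched UMIs and 895 to 1234 without each library; without the library block 985 were higher and 432 lower, so that the higher share of calls went from 52.98% to 69.5%. Against Atoh1-positive cells below the threshold, DESeq2 called 1087 higher and 1130 lower, and lower genes numbered 1247 with the stricter removal and 1213 against cells with 0 proliferation UMIs. The cause of these shifts was not tested.

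Signs of single genes turned in these cases. With the stricter doublet removal, which left out control 2, the knockout difference was 2.99 for Zg16, 0.23 for Tff3 and 0.81 for Nupr1, and the interaction was 0.24 for Agr2. Gcg was then 0.15 against dividing Atoh1-zero cells, and Clu 0.069 and Dll1 0.032 against Atoh1-positive cells below the threshold. Leaving out each library, the knockout difference ran from -6.47 to 0.29 for Zg16, -1.79 to 0.28 for Nupr1 and -4.47 to 2.95 for Mptx1 (each highest without control 2), -2.24 to 0.81 for Olfm4 (highest without control 1, 0.073 without knockout 2) and -0.36 to 0.44 for Cblc (-0.077 without knockout 1, -0.0038 with Atoh1 at 3 or more UMIs). Against dividing Atoh1-zero cells it ran from -2.82 to 0.052 for Gcg, -0.085 to 1.17 for Clu and -0.31 to 0.058 for Sox4, and the interaction of Ly6d from -1.66 to 8.58, each with the turned sign without knockout 2. Against cells with 0 proliferation UMIs, Clu was 0.31, Ly6a -0.58 and Dll1 0.062, and with matched UMIs Dll1 was 0.20. The 17 cells of control 2 limit all values of that library.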

Other observations

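A few other genes called between knockout and control in the dividing Atoh1-positive cells, with the mouse as a block, were chosen for mention after their values were seen and stand for no tested group. Ldha and Pkm, enzymes at the end of glycolysis, went from 826 and 680 CPM to 1359 and 1114 CPM and from 634 and 564 CPM to 943 and 933 CPM. Srm, which makes spermidine, went from 121 and 124 CPM to 201 and 228 CPM. Cth, which makes cysteine, was lower at 53.8 and 37.4 CPM against 98.6 and 193 CPM, and Pck2, the mitochondrial form of PEPCK, at 65.8 and 60.1 CPM against 109 and 150 CPM. Id4, an inhibitor of helix-loop-helix factors, was at 12.1 and 5.13 CPM in controls and at 48.5 and 45.4 CPM in knockouts, while in dividing Atoh1-zero cells it was at or under 4.38 CPM. These genes had the same direction in dividing Atoh1-zero cells in both mice.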
